A study of Mus musculus with 9 samples.

Results

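The α- and β-tubulin rows of the count table and Gm49450, a row made of exons from 2 of the α-tubulin genes, were followed across a GSK3 inhibitor experiment in mouse embryonic stem cells. The 10 rows were taken by symbol: Tuba1a, Tuba1b and Tuba1c for α-tubulin, Tubb2a, Tubb2b, Tubb3, Tubb4b, Tubb5 and Tubb6 for β-tubulin, and Gm49450. They are 10 of the 52264 rows of the table, and all 10 were among the 15366 rows that passed the filter on low counts. Gm49450 was chosen by its fold change between BRD0705 and control. Its own levels are therefore given below as a description, with no test. The main tests concern the 9 tubulin genes, the sum of Gm49450, Tuba1a and Tuba1b, and the correlations of Gm49450 with Tuba1a and Tuba1b.

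The data were 9 RNA sequencing libraries, 3 in each of 3 groups. Every group was labelled β-catenin-/-, so the deletion is shared by the controls. The cells had been expanded on feeder-treated dishes with 3 µM CHIR-99021, 1 µM PD03 and 40 ng/ml LIF, and were moved to N2B27 medium overnight. They were then kept as controls, or treated with BRD0705 or CHIR, for 30 min. BRD0705 is an inhibitor selective for GSK3α, and CHIR inhibits both GSK3α and GSK3β. The doses of the 30 min treatments were not given in the sources used here, so the compounds are compared only as labelled. The labels do not say that the replicates were separate cultures, and p-values here measure only the spread between these samples.

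Total counts were 17359422 to 20773337 per library. Replicate pairs differed by more than counting noise, with chi-square values of 3.37 to 7.89 per degree of freedom. Ctnnb1, the β-catenin gene, had 303 to 371 CPM (counts scaled to library size) in the 9 libraries, and with no wild-type library the count does not check the genotype label. Pluripotency markers (9 of 9 detected) summed to 4123 to 4186 CPM in controls, 4015 to 4183 CPM with BRD0705 and 4242 to 4396 CPM with CHIR. The CHIR sums were above all others, while the means of 4 of the 9 markers were above control with CHIR. At an adjusted p under 0.05 (edgeR), 0 of 9 passed for BRD0705 against control, 2 for CHIR against control and 3 for BRD0705 against CHIR. The shares of all rows were 1.22%, 6.30% and 7.77%. Fibroblast markers of the kind feeder cells carry (15 of 15 detected) summed to 5861 to 6630 CPM in controls, 6710 to 7232 CPM with BRD0705 and 6554 to 7277 CPM with CHIR. All 15 had a higher mean in both treated groups than in controls. In bulk RNA, a different number of cells of a type and a different amount of RNA per cell cannot be told apart.

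Microtubules are hollow polymers of α- and β-tubulin heterodimers, and each subunit comes from a family of closely related genes. Cells match tubulin mRNA to the pool of free subunits: when free tubulin rises, TTC5 recognises the first amino acids of tubulin as they leave the ribosome and the message is degraded. GSK3 phosphorylates several proteins that bind microtubules, tau and MAP1B among them, besides its part in the degradation of β-catenin. Transcript identity matters for the counts too, because tubulin coding sequences are so alike that one read can match several genes.

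Gm49450 is a clear case of such sharing. In GENCODE vM39 on GRCm39 it lies on the minus strand of chromosome 15 from 98830018 to 98851432 and is tagged as a readthrough gene, meaning one transcript that runs from one gene into the next. The files' build, mm10, differs, so these positions place the gene but were not used to read the files. Its single transcript of 899 bases has 4 exons. Exons 1, 2 and 3, of 101, 223 and 149 bases, lie in exons 1, 2 and 3 of Tuba1a, and exon 4, of 426 bases, lies within the 2706 bases of exon 4 of Tuba1b. Tuba1a spans 98847714 to 98851589 and Tuba1b 98827738 to 98832493, both on the same strand, while Tuba1c lies at 98927748 to 98936266 on the plus strand.

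A single read can belong to Gm49450 alone only around the junction of exons 3 and 4, where the Tuba1a part meets the Tuba1b part. Over the 375 coding bases before this junction Gm49450 differed from Tuba1a at 0 positions and from Tuba1b at 3, the nearest 64 bases before the junction. Over the 426 bases after it, the row differed from Tuba1b at 0 positions and from Tuba1a at 13, the nearest 51 bases after the junction. A single read specific to Gm49450 among annotated genes therefore has to cross the junction and take in a difference on each side of it. With paired ends, separate reads of a pair could take in the differences. Whether ends were paired is not given in the sources used here. No stretch of up to 114 bases of Gm49450 was found in Gm49450 alone, and the shortest such stretch had 115 bases.

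**Figure D1:**
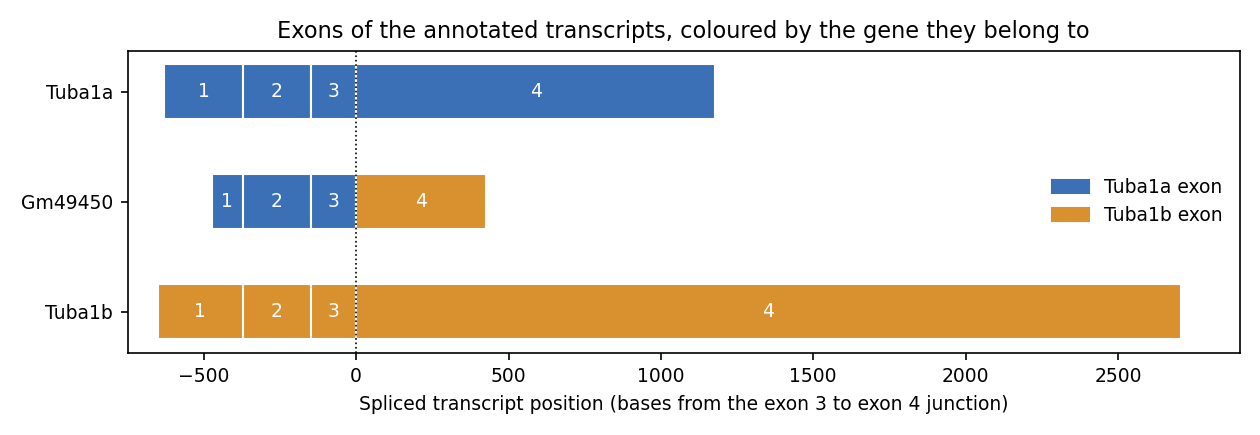
Exons of the annotated Tuba1a, Gm49450 and Tuba1b transcripts, drawn to scale along the spliced transcript in bases from the junction of exon 3 and exon 4, and coloured by the gene each exon belongs to. Gm49450 has 3 exons of Tuba1a before the junction and 426 bases of Tuba1b exon 4 after it.

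The share of Gm49450 that was unique rose with the length considered. At 75 bases it was 0 of 825 windows, at 150 bases 36 of 750 (4.8%), at 200 bases 12.3% and at 300 bases 31% of windows. The read length was not given in the sources used here. At 75 bases, 72.6% of the Gm49450 windows were also in Tuba1a, 70.3% in Tuba1b and 61.2% in Tuba1c. Counts of this row therefore depend on how reads that match several genes were assigned.

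**Figure D2:**
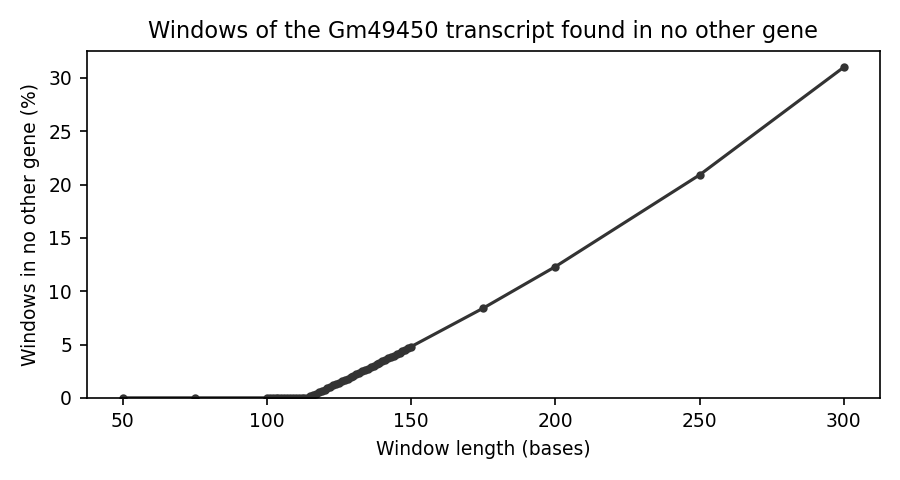
Share of windows of the Gm49450 transcript that occur in no other annotated gene (percent) against the window length in bases. The share is 0 up to 114 bases and reaches 31% at 300 bases.

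The same measure separated the tubulin genes into rows that share reads and rows that do not. At 75 bases, 68.1% of Tuba1a, 36.5% of Tuba1b and 49.6% of Tuba1c was shared with another gene. Tubb2a (29.5%), Tubb2b (11.9%) and Tubb4b (37.7%) shared part of their sequence, Tubb2a and Tubb2b mostly with each other and Tubb4b mostly with pseudogenes. Tubb3, Tubb5 and Tubb6 shared none. The coding sequences of Tuba1a and Tuba1b were 98.3% identical, with 23 of 1353 positions differing, and those of Tubb2a and Tubb2b 96.5% identical. Other β-tubulin pairs were 80.2 to 85.9% identical, and an α and a β gene 52.6 to 55.1%. Genes on the opposite strand overlapped Tuba1a (Gm41396 and B430209F14Rik), Tuba1b (Gm41396), Tubb2a (Bphl), Tubb2b (Gm36500), Tubb4b (Cimip2a), Tubb5 (Flot1) and Tubb6 (Gm58538 and Afg3l2). Whether counting used strand is not given in the sources used here, so reads from such partners could not be told apart.

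Gm49450 was at 56.3, 20.4 and 66.5 CPM in control replicates 1 to 3, from counts of 1143, 422 and 1349. With BRD0705 it was at 5.56, 10.4 and 2.42 CPM, from counts of 104, 183 and 51. With CHIR it was at 19.6, 8.70 and 24.9 CPM, from counts of 394, 158 and 456. All 3 BRD0705 libraries were below all 3 controls, while CHIR overlapped both other groups. The group means were 47.8 ± 24.2, 6.13 ± 4.03 and 17.8 ± 8.28 CPM (SD, n = 3 each). The fitted log2 differences were -3.0 for BRD0705 against control, -1.42 for CHIR against control and -1.58 for BRD0705 against CHIR. Among replicates of one group the row varied by a CV of 46.6 to 65.6%, against 2.64 to 9.26% for Tuba1a and Tuba1b.

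Tuba1a encodes an α-tubulin that is abundant in the developing nervous system. It had 988, 844 and 883 CPM in controls, 1141, 984 and 987 CPM with BRD0705, and 938, 957 and 989 CPM with CHIR. Control 1 was as high as BRD0705 replicates 2 and 3, so the groups overlapped. Tuba1b, a widely expressed α-tubulin, had 3903, 3337 and 3507 CPM in controls, 4545, 3962 and 3830 CPM with BRD0705, and 3661, 3783 and 4112 CPM with CHIR. Again control 1 lay within the range of the treated libraries. Tuba1c, the α-tubulin gene on the other strand nearby, had 748, 637 and 606 CPM in controls, 834, 742 and 697 CPM with BRD0705, and 636, 698 and 694 CPM with CHIR, with overlap throughout.

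**Figure D3:**
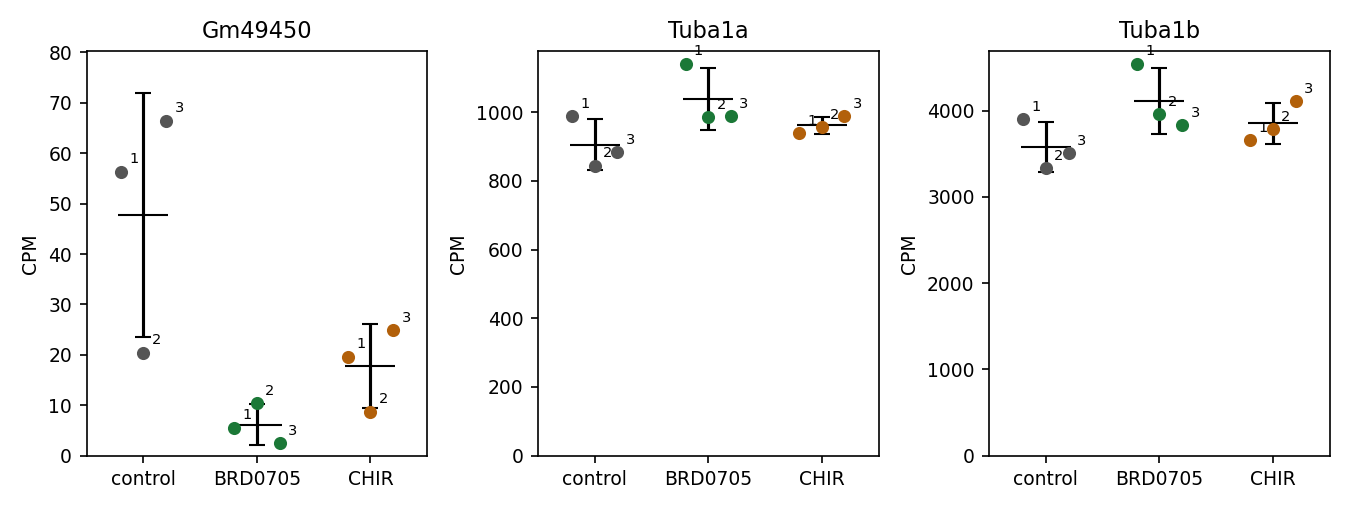
CPM of Gm49450, Tuba1a and Tuba1b in the 9 libraries, each panel on its own linear axis from 0, with replicate numbers beside the points, a line at the group mean and bars of 1 SD (n = 3). Gm49450 is lower in the 3 BRD0705 libraries than in the 3 controls, while the groups of Tuba1a and of Tuba1b overlap.

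The next comparison asked whether the Gm49450 difference was mirrored in Tuba1a and Tuba1b. With BRD0705, Tuba1a had a log2 fold change of 0.20 ± 0.065 (SE), or 14.7%, and Tuba1b 0.20 ± 0.070, or 14.8%. Neither passed the threshold of 0.05 (edgeR, Benjamini-Hochberg adjusted p = 0.141 and 0.166 over 15366 rows). With CHIR, the values were 0.09 ± 0.065 and 0.10 ± 0.070 (edgeR, adjusted p = 0.503 and 0.440). Between BRD0705 and CHIR they were 0.11 and 0.09 (edgeR, adjusted p = 0.338 and 0.463). The means of both genes were thus on the opposite side of control from Gm49450 with both inhibitors, by amounts that did not pass. The comparisons share libraries, so they are not independent of one another. Leaving out control replicate 1 brought Tuba1a to 0.27 with BRD0705 (edgeR, adjusted p = 0.0494), while leaving out BRD0705 replicate 1 brought it to 0.13 (edgeR, adjusted p = 0.510). Tuba1b was at 0.12 without BRD0705 replicate 1 (edgeR, adjusted p = 0.553) and 0.27 without control replicate 1 (edgeR, adjusted p = 0.0661), and it did not pass without any 1 library. DESeq2 on the same rows gave Tuba1a an adjusted p of 0.0404.

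The differences were of unequal size. In CPM, BRD0705 minus control was -41.6 ± 14.2 (SE) for Gm49450, 133 ± 67.3 for Tuba1a and 530 ± 276 for Tuba1b. Tuba1a and Tuba1b together were 663 ± 343 CPM higher, 15.9 times the amount by which Gm49450 was lower. For CHIR minus control the 3 rows differed by -30.0 ± 14.8, 56.6 ± 45.4 and 270 ± 215 CPM, and the pair together by 10.9 times the Gm49450 difference. Had the whole Gm49450 difference with BRD0705 been counted in Tuba1a instead, that row would have been 4.60% higher, or 0.065 on the log2 scale, as large as its SE of 0.065. In Tuba1b it would have been 1.16%, or 0.017 on the log2 scale, against an SE of 0.070. A transfer of reads of this size was thus not detectable in Tuba1b at this spread, and was at the size of 1 SE in Tuba1a.

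Adding the 3 rows removes any effect of how reads were divided among them. The sum was 4535 ± 379 CPM in controls, 5156 ± 469 with BRD0705 and 4831 ± 263 with CHIR (n = 3 and SD in each). On the log2 scale it differed from control by 0.19 ± 0.069 (SE) with BRD0705 (edgeR, adjusted p = 0.192), 0.09 with CHIR (edgeR, adjusted p = 0.509) and 0.09 between BRD0705 and CHIR (edgeR, adjusted p = 0.457). Without the filter on low counts the first of these passed, at 0.19 (edgeR, adjusted p = 0.0203). Gm49450 was a small part of the sum in every library, from 0.0503% in BRD0705 replicate 3 (exact 95% interval 0.0374 to 0.0661%) to 1.49% in control replicate 3 (1.41 to 1.57%). These intervals cover counting error only. The group means were 1.04 ± 0.510% in controls, 0.119 ± 0.0821% with BRD0705 and 0.365 ± 0.160% with CHIR (mean ± SD, n = 3 each). At 1.04% of the sum in controls, a complete loss of Gm49450 would hardly change the sum. The sum therefore could not tell reads moved between these rows from reads lost. With BRD0705 the sum was 621 ± 348 CPM (SE) higher than in controls, beside 663 ± 343 for Tuba1a and Tuba1b together.

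Library by library, opposite movement was not resolved. Across the 9 libraries, Gm49450 and Tuba1a had r = -0.40 (exact permutation test, two-sided, p = 0.286, adjusted over 2 genes 0.340) and rho = -0.30 (exact permutation p = 0.437, adjusted 0.437). Gm49450 and Tuba1b had r = -0.36 (exact permutation p = 0.340, adjusted 0.340) and rho = -0.32 (exact permutation p = 0.410, adjusted 0.437). Without control replicates 1 and 3, the libraries farthest from the median of Gm49450, r was -0.53 for Tuba1a (exact permutation p = 0.235) and -0.36 for Tuba1b (exact permutation p = 0.439). Over deviations from the group means the sign turned: r was 0.334 for Tuba1a (permutation p = 0.386) and 0.374 for Tuba1b (permutation p = 0.337). These permutations mixed groups of unequal spread, so the p-values are approximate. The r values over all 9 libraries also take in the BRD0705 difference by which Gm49450 was chosen, so they are no separate support. Controls weigh most in these r values, with a Gm49450 SD of 24.2 CPM against 4.03 with BRD0705 and 8.28 with CHIR. In controls, replicate 2 was the lowest of the 3 for Gm49450, for Tuba1a and for Tuba1b.

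Over the 9 libraries the proportion of Tuba1a to Tuba1b varied less than either level, though not within CHIR, where the CV was 3.35% for the ratio and 2.64% for Tuba1a. The ratio of their counts was 0.252 ± 0.000733 in controls, 0.252 ± 0.00484 with BRD0705 and 0.25 ± 0.00837 with CHIR (mean ± SD, n = 3 each). Over the 9 libraries it varied by a CV of 2.00%, compared with 8.59% for Tuba1a and 9.13% for Tuba1b. No difference between groups was resolved (two-sided exact permutation p = 1, 0.9 and 0.8, where 0.1 is the smallest that 3 against 3 can give). The log2 CPM of Tuba1a and Tuba1b correlated at 0.975 over the 9 libraries, and that of Tuba1c at 0.904 and 0.888 with them. These 3 rows share sequence and libraries, so the correlations are a description.

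Across all 9 tubulin genes, 0 passed in each of the 3 comparisons. The background was 188 of 15366 rows, 1.22%, for BRD0705 against control, 6.30% for CHIR against control and 7.77% for BRD0705 against CHIR. At an unadjusted p under 0.05 there were 6, 1 and 1 of 9 (edgeR), against backgrounds of 15.9%, 20.5% and 22.5%. The 6 include Tuba1a, Tuba1b and Tuba1c, which share sequence and correlate at 0.888 to 0.975, so the 9 are not separate observations. By DESeq2, 1, 0 and 0 passed. The median log2 fold change of the 9 was 0.15, 0.03 and 0.09, beside medians of -0.00, -0.01 and 0.00 over all rows. With BRD0705 the 95% intervals of the 9 genes reached at most 0.35 from 0 on the log2 scale, with CHIR 0.28. Groups did not overlap for 1 of 9 genes with BRD0705, Tubb2a, where 9.83% of all rows were wholly higher and 10.4% wholly lower, 20.2% together. With CHIR against control, 0 of 9 were apart, beside 10.9% of all rows wholly higher and 14.1% wholly lower, 25.1% together. Between BRD0705 and CHIR, 0 of 9 were apart, beside 13.7% and 12.9%, 26.7% together.

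**Figure D4:**
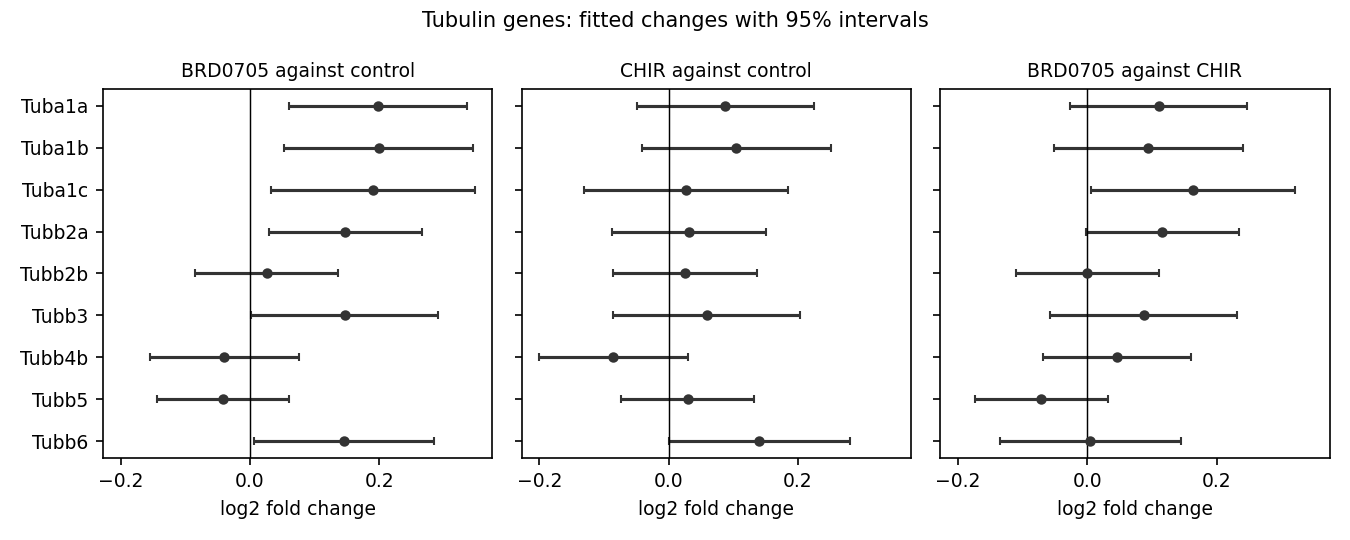
Fitted log2 fold changes of the 9 tubulin genes (points) with 95% intervals (bars) from edgeR for the 3 comparisons. The 3 α-tubulin genes lie at 0.19 to 0.20 with BRD0705 against control, and no gene passed at an adjusted p under 0.05 in any comparison.

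Over the 9 libraries the summed CPM of the 6 β-tubulin genes varied by a CV of 1.88%, and that of the 3 α-tubulin genes by 9.0%. Tubb5, the main β-tubulin of dividing cells, had 2478, 2467 and 2462 CPM in controls, 2479, 2360 and 2355 CPM with BRD0705, and 2447, 2489 and 2623 CPM with CHIR. Its log2 fold changes of -0.04 and 0.03 against control did not pass (edgeR, adjusted p = 0.743 and 0.807). Tubb4b, a broadly expressed β-tubulin also used in cilia, had 697, 637 and 695 CPM in controls, 644, 632 and 697 CPM with BRD0705, and 653, 643 and 617 CPM with CHIR. Its values of -0.04 and -0.09 did not pass (edgeR, adjusted p = 0.788 and 0.417). Tubb5 and Tubb4b ranges overlapped between all groups.

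Tubb2a and Tubb2b are neighbouring β-tubulin genes that are abundant in neurons. Tubb2a had 73.6, 70.2 and 72.6 CPM in controls, 82.0, 75.8 and 81.9 CPM with BRD0705, and 76.1, 73.7 and 71.4 CPM with CHIR. All 3 BRD0705 libraries were above all 3 controls, but the log2 fold change of 0.15 did not pass (edgeR, adjusted p = 0.204). Tubb2b had 366, 349 and 370 CPM in controls, 360, 352 and 392 CPM with BRD0705, and 377, 365 and 362 CPM with CHIR, a log2 fold change of 0.03 in each inhibitor against control (edgeR, adjusted p = 0.868 and 0.849). The ratio of Tubb2a to Tubb2b was 0.20 ± 0.00293 in controls, 0.217 ± 0.00947 with BRD0705 and 0.20 ± 0.0026 with CHIR (mean ± SD, n = 3 each). The BRD0705 libraries were above all others in this ratio. That gives a two-sided exact permutation p of 0.1 against each group. It is the smallest the design allows, so the ratio could not have passed.

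Tubb3, the β-tubulin used as a neuronal marker, had 64.6, 63.3 and 71.1 CPM in controls, 72.4, 67.2 and 80.4 CPM with BRD0705, and 69.3, 66.5 and 71.5 CPM with CHIR. Tubb6, a β-tubulin found in many non-neuronal cells, had 66.6, 62.2 and 55.7 CPM in controls, 68.8, 69.5 and 65.8 CPM with BRD0705, and 67.8, 71.0 and 64.6 CPM with CHIR. Both had log2 fold changes of 0.15 with BRD0705 (edgeR, adjusted p = 0.309 and 0.296). With CHIR they were at 0.06 and 0.14 (edgeR, adjusted p = 0.702 and 0.241). Their groups overlapped in all comparisons. Neural markers (9 of 10 detected, Neurog2 at 0 counts in all libraries) summed to 310 to 338 CPM in controls, 298 to 327 with BRD0705 and 287 to 328 with CHIR. Most of this was Stmn2, with means of 254, 242 and 238 CPM in the same order. Of 7 neural markers tested, 0, 1 and 1 passed in the 3 comparisons (edgeR), beside 1.22%, 6.30% and 7.77% of all rows. The part of these markers in the Tubb3 level was not tested.

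Between BRD0705 and CHIR, the value farthest from 0 was that of Tuba1c, at 0.16 (edgeR, adjusted p = 0.203, 95% interval 0.01 to 0.32). Tubb2b and Tubb6 were nearest to 0, each at 0.00 (edgeR, adjusted p = 0.999 and 0.978), with 95% intervals of -0.11 to 0.11 and -0.13 to 0.14. The 9 tests did not separate the compounds, which does not show that they act alike.

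The means of all 15 fibroblast markers and of the 3 α-tubulin genes were above control with both inhibitors. Of those 15 markers, 2 passed in each comparison with control, Col1a1 and Col5a1 (edgeR), beside calls in 1.22% and 6.30% of all rows. At an unadjusted p under 0.05 there were 9 and 8 of 15 (edgeR), beside 15.9% and 20.5% of all rows. With the mean log2 CPM of the 15 fibroblast markers as a covariate, Tuba1a was at 0.13, Tuba1b at 0.18 and Tuba1c at 0.09 for BRD0705 against control (edgeR, adjusted p = 0.846, 0.806 and 0.914). That fit called 0 of 15366 rows in this comparison. The marker score was 6.56 to 6.74 in controls, 6.83 to 6.89 with BRD0705 and 6.68 to 6.94 with CHIR. Controls and BRD0705 did not overlap in it, so this fit could not separate the markers from the BRD0705 treatment.

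Scaled to transcript length, the levels spanned a wide range. Means over the 9 libraries in CPM per kb of transcript were 1146 ± 105 (SD) for Tuba1b, 928 ± 29.6 for Tubb5, 535 ± 46.0 for Tuba1a, 411 ± 19.3 for Tubb4b and 307 ± 30.5 for Tuba1c. Well below these came Tubb2b at 63.2 ± 2.26, Tubb2a at 32.4 ± 1.81, Gm49450 at 26.6 ± 25.2, Tubb6 at 22.6 ± 1.58 and Tubb3 at 21.7 ± 1.60. Tubb6 and Tubb3 did not differ beyond their spread, and the spread of Gm49450 took in Tubb2a, Tubb6 and Tubb3. In controls alone Gm49450 was at 53.1 ± 26.9 CPM per kb, near Tubb2b. Lengths are those of the GENCODE vM39 canonical transcripts, and levels of the α-tubulin rows rest on how shared reads were divided.

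**Figure D5:**
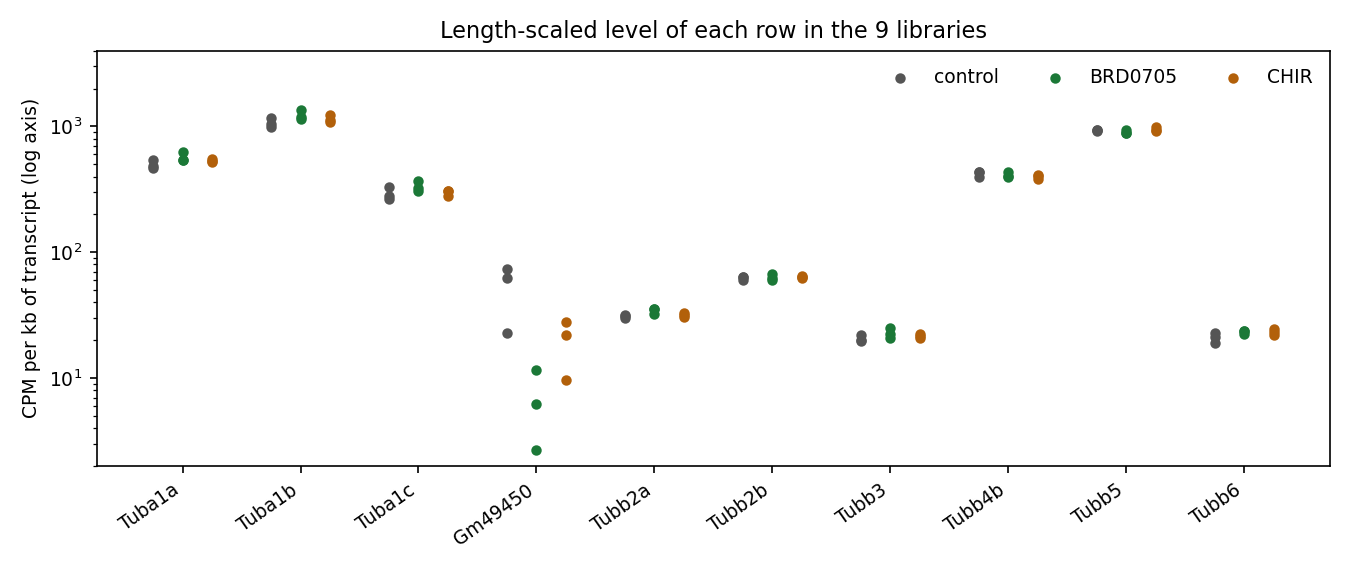
CPM per kb of transcript for the 10 rows in the 9 libraries (log axis), coloured by group. Gm49450 spreads over more than the range of any tubulin gene, and Tuba1b and Tubb5 are the highest rows.

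In CPM, the 3 α-tubulin genes summed to 5151 ± 432 in controls, 5907 ± 538 with BRD0705 and 5490 ± 283 with CHIR, and the 6 β-tubulin genes to 3707 ± 51.1, 3645 ± 79.2 and 3736 ± 64.1 (SD, n = 3 each). The α-to-β ratio was 1.39 ± 0.102 in controls, 1.62 ± 0.130 with BRD0705 and 1.47 ± 0.0513 with CHIR. The differences in it were 0.231 for BRD0705 against control, 0.0802 for CHIR against control and 0.151 between BRD0705 and CHIR. Their two-sided exact permutation p-values were 0.2, 0.3 and 0.2, in a design that cannot go below 0.1 and so could not have passed. Tuba1b made up 69.8 ± 0.54% of the α counts over the 9 libraries, and Tubb5 66.6 ± 1.29% of the β counts (SD, n = 9).

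Besides the α-tubulin genes, 9 annotated genes share a stretch of 75 bases with Gm49450. Tested rows among them were Gm14150, Gm17383, Gm3226, Gm5620 and Gm6682, with 18 to 756 counts per library. None passed in any comparison (edgeR, lowest adjusted p = 0.0744, for Gm17383). Gm15599 and Gm17938 had 0 counts in every library, Gm3756 had 0 to 3, and Gm61276 had no row under this symbol. Antisense genes that overlap Gm49450 were Gm41396, at 0.0535 to 0.444 CPM, Gm49449, at 0.0551 to 0.967 CPM, and B430209F14Rik, with no row under this symbol. None of them was tested.

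Among other genes within 100 kb of Gm49450, 3 were tested. Rhebl1, a small GTPase of the Rheb family 37597 bases away, was at 9.06 ± 0.727 CPM in controls, 6.25 ± 0.447 with BRD0705 and 7.87 ± 0.910 with CHIR (mean ± SD, n = 3 each). It fell by 0.54 on the log2 scale with BRD0705 (edgeR, adjusted p = 0.0395), a call that was lost without control replicate 2 or 3 or any 1 BRD0705 library (edgeR, adjusted p = 0.0847 to 0.181). Kmt2d, a histone methyltransferase, was 0.24 higher with BRD0705 than with CHIR (edgeR, adjusted p = 0.0470), and this call was lost on leaving out any 1 library other than BRD0705 replicate 3 or CHIR replicate 3 (edgeR, adjusted p = 0.0535 to 0.203). Kmt2d also missed the threshold in 6 of 14 other settings, among them the replicate block and limma voom (adjusted p = 0.0649 and 0.0523). Lmbr1l passed in none.

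The machinery around tubulin was followed in lists of related genes. Of 16 further tubulin rows, 9 were tested. For BRD0705 against control, CHIR against control and BRD0705 against CHIR, 0, 1 and 0 of the 9 passed (edgeR). The shares of all rows called were 1.22%, 6.30% and 7.77%. The row that passed was Tubd1, the δ-tubulin of centrioles, which fell by 0.63 with CHIR on the log2 scale (edgeR, adjusted p = 0.0407). Tubd1 was at 4.14, 4.36 and 6.21 CPM in controls and at 3.24, 2.92 and 3.33 CPM with CHIR. The call was lost on leaving out any 1 library other than control replicate 1 or BRD0705 replicate 3 (edgeR, adjusted p = 0.0501 to 0.230). Without control replicate 3 the value of Tubd1 was -0.42. It also missed the threshold in 4 of 14 other settings, among them the replicate block and limma voom (adjusted p = 0.0535 and 0.0557). Of 8 genes of the γ-tubulin complex that nucleates microtubules, 0, 0 and 1 passed, in the same order and beside the same shares of all rows. Mzt1 passed, lower with BRD0705 (52.0 ± 2.07 CPM) than with CHIR (68.2 ± 3.34 CPM), by a log2 value of -0.39 (edgeR, adjusted p = 0.00208). Its controls lay between, at 59.0 ± 5.54 CPM.

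Chaperones and cofactors that fold tubulin, 22 genes of the CCT and prefoldin complexes and the tubulin cofactors, had 0 calls in each comparison (edgeR, with 9, 4 and 8 of 22 at an unadjusted p under 0.05, beside 15.9%, 20.5% and 22.5% of all rows). Their median log2 fold change was -0.10 with BRD0705 and -0.04 with CHIR. The 3 genes of tubulin mRNA autoregulation, Ttc5, Scaper and Cnot11, had 0 calls (edgeR, lowest adjusted p = 0.106, with 0, 1 and 0 at an unadjusted p under 0.05). The site that TTC5 recognises is at the start of the protein. There Gm49450, Tuba1a, Tuba1b and Tuba1c all begin their coding sequence with ATGCGTGAGTGC, and Tubb5 begins with ATGAGGGAAATC. Of 19 tested genes that modify tubulin, 0, 0 and 1 passed in the 3 comparisons, beside calls in 1.22%, 6.30% and 7.77% of all rows. Vash2, a tubulin carboxypeptidase, was 0.61 higher with BRD0705 than with CHIR (edgeR, adjusted p = 0.0207), at 5.64 ± 0.576 against 3.70 ± 0.508 CPM. That call was lost without BRD0705 replicate 3 or CHIR replicate 1 or 2 (edgeR, adjusted p = 0.0548 to 0.0899).

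The list of proteins that bind microtubules held 32 tested genes. With BRD0705 against control, 2 rose and 0 fell, with CHIR 0 rose and 1 fell, and 4 were higher with BRD0705 than with CHIR, each of 32, beside calls in 1.22%, 6.30% and 7.77% of all rows. Their medians, 0.03, 0.01 and 0.03, were close to those of all rows. Mapt encodes tau, the microtubule-stabilising protein of axons. It was at 68.2, 65.7 and 71.0 CPM in controls, 70.5, 68.3 and 70.0 CPM with BRD0705, and 43.1, 52.4 and 55.9 CPM with CHIR. All 3 CHIR libraries were below the other 6. Mapt fell by 0.44 ± 0.076 with CHIR (edgeR, adjusted p = 0.00189) and was 0.47 ± 0.076 higher with BRD0705 than with CHIR (edgeR, adjusted p = 0.00101), while BRD0705 against control was 0.03 (edgeR, adjusted p = 0.908). With the fibroblast score as a covariate, Mapt was at -0.35 for CHIR against control and did not pass (edgeR, adjusted p = 0.155). That fit called 120 rows in this comparison, against 968 without the covariate.

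Map7d1, a protein that links kinesin to microtubules, had 123, 111 and 118 CPM in controls, 153, 143 and 156 CPM with BRD0705, and 130, 132 and 124 CPM with CHIR. It rose by 0.36 ± 0.056 with BRD0705 (edgeR, adjusted p = 0.00525) and was 0.22 higher than with CHIR (edgeR, adjusted p = 0.0206). Map1b, a microtubule-associated protein of growing axons, had 45.3, 45.7 and 46.6 CPM in controls, 61.1, 57.6 and 51.2 CPM with BRD0705, and 48.0, 47.1 and 45.6 CPM with CHIR. It rose by 0.30 ± 0.065 with BRD0705 (edgeR, adjusted p = 0.0320) and was 0.27 higher than with CHIR (edgeR, adjusted p = 0.0159). The fit with the fibroblast score, which did not overlap between BRD0705 and control, called 0 of 15366 rows. Map7d1 was then at 0.27 and Map1b at 0.24 for BRD0705 against control, and neither passed the threshold (edgeR, adjusted p = 0.586 and 0.660). Without control replicate 2 or 3, any of BRD0705 replicates 1 and 2, or CHIR replicate 2, Map1b against control also missed it (edgeR, adjusted p = 0.0511 to 0.194). Against CHIR, Map1b missed it without BRD0705 replicate 1 or 2 or CHIR replicate 2 or 3 (edgeR, adjusted p = 0.0593 to 0.109), and Map7d1 without BRD0705 replicate 1 or 3 or CHIR replicate 2 or 3 (edgeR, adjusted p = 0.0536 to 0.0878). Map1a, a related protein of mature neurons, was 0.36 higher with BRD0705 than with CHIR (edgeR, adjusted p = 0.00351), at 46.2 ± 1.57 against 35.9 ± 2.35 CPM.

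Rows whose pattern was most like that of Gm49450 were ranked by Pearson r of log2 CPM over the 9 libraries. The 5 nearest were Hdac1-ps (0.962), Leprot (0.948), Bhlhe22 (0.924), Rps27rt (0.922) and Slirp (0.916). The 5 nearest to Tuba1b were Nabp2 (0.976), Tuba1a (0.975), Raver1 (0.972), Pinx1 (0.965) and Ly6e (0.961). With 9 libraries and 15366 rows, these are the top of a ranking and carry no test.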

How the data were processed

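RNA sequencing was done on 9 libraries of mouse embryonic stem cells, 3 per group, and groups and replicate numbers came from the labels. The authors deposited raw counts per gene symbol as whole numbers. The submitters' processing notes list RSEM, DESeq2 and mm10 with no role or version. Whether the counts are rounded RSEM estimates is not given in the sources used here. Nor are the aligner, annotation, strand, read length and use of paired ends. The second deposited table holds a signal, the raw counts divided by 1 factor per library (departure 5.1e-10), and served as an alternative only.

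Counts were tested with edgeR 4.0.16 (R 4.3.3): TMM scaling, filterByExpr set to at least 10 counts, and its two-sided quasi-likelihood test, with all 9 libraries in 1 fit of 3 group means (6 residual degrees of freedom). Adjusted p-values are Benjamini-Hochberg over 15366 rows, and rows passed under 0.05. CPM used TMM library sizes. A prior count of 2 was added for log2 CPM. The standard error of a fold change came from its F statistic. For the sum, 3 rows were replaced by their total and the table refitted. Exact permutation tests went through all pairings or group splits with numpy 2.4.6, and ranks for rho came from scipy 1.17.1.

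Transcript sequences and their exons were those of GENCODE vM39 (GRCm39), matched by symbol. The sequence at the junction is not reported here. A window was shared if it occurs on the same strand in a transcript of another gene.

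On counts simulated for BRD0705 against control over 15366 genes, 200 of them changed, edgeR recovered 88% of log2 changes of 1 and 64% of 0.5, and 5.59% of calls were false. Changes as small as those of the tubulin genes, at most 0.20 in this comparison, were not simulated.

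The members and gene lists were chosen with earlier results of these data known. Named were all 10 members, passing genes of the 6 lists of tubulin and microtubule genes (not of the cell type markers), neighbours within 100 kb, and the 5 rows most like Gm49450 and Tuba1b. Alternatives were DESeq2 1.42.0, limma voom (limma 3.58.1), the replicate block, other size factors, library size only, no filter, a filter at 1 CPM on average, only the compared groups, limma on the normalized values with a pseudocount of 1 or 0.1 before log2, Gm49450 added to Tuba1a or Tuba1b or left out, the fibroblast score as a covariate, and each library left out. The sum over all rows sharing a 75-base window was added after seeing the data.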

Additional observations from a re-analysis of the deposited data

How the results depend on the processing

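Over 23 alternatives, the count of tubulin genes that passed was 0 throughout for CHIR against control and for BRD0705 against CHIR. For BRD0705 against control it was 1 with DESeq2 (Tuba1a), 3 without the low-count filter (Tuba1a, Tuba1b and Tuba1c, edgeR adjusted p = 0.0185, 0.0106 and 0.0297), 0 to 1 with a library left out (1 without control replicate 1) and 0 in the others. The sum of Gm49450, Tuba1a and Tuba1b with BRD0705 passed without the filter (0.19, edgeR adjusted p = 0.0203) and in no other setting. With a library left out it ranged from 0.11 to 0.25, with CHIR from 0.05 to 0.16, and between BRD0705 and CHIR from 0.01 to 0.14. The correlation of Gm49450 with Tuba1a ranged from -0.54 to -0.20 with a library left out, and with Tuba1b from -0.47 to -0.15. Over deviations from group means both turned positive, to 0.334 and 0.374. Gm49450 kept its direction under all alternatives, from -3.60 to -2.58 for BRD0705 against control. The row was chosen by its fold change in this comparison, so the kept direction is a description and no separate support.

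Values close to 0 changed sign; the cause was not tested. Tubb2b between BRD0705 and CHIR was -0.00114 with the replicate block, -0.00376 with DESeq2, -0.000924 with voom, -0.00385 with other size factors, -0.00206 without the filter, -0.00881 with the normalized values at either pseudocount, -0.00200 with the fibroblast covariate and -0.0462 to 0.0297 with a library left out. With library size only, Tubb2b was at -0.000108 for CHIR against control, and it ranged from -0.0134 to 0.0630 for BRD0705 against control with a library left out. Tubb6 between BRD0705 and CHIR was -0.00147 with the normalized values at either pseudocount, -0.00845 with the covariate and -0.0313 to 0.0363 with a library left out. For CHIR against control, Tuba1c was -0.0574 and Tubb2a -0.0207 with the covariate, and Tuba1c ranged from -0.0267 to 0.128 with a library left out.

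Over all rows, calls for BRD0705 against control numbered 188, but 489 with DESeq2, 609 without the filter, 0 with the covariate and 21 to 305 with a library left out. For CHIR against control they numbered 968, but 120 with the covariate and 514 to 1070 with a library left out, and between BRD0705 and CHIR 1194, but 616 to 1313. Equal replicate numbers did not pair the libraries: deviations of same-numbered libraries correlated at -0.0897 to 0.0802 over 9 pairs. With the replicate block, 0 tubulin genes passed in each comparison, the sum was at 0.19, 0.10 and 0.09, and 222, 973 and 1177 rows were called.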
